A study of Mus musculus with 13 samples.

Results

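The 10 genes described here encode the enzymes, structural proteins, transporters and channels with which a melanocyte makes melanin: Tyr, Tyrp1, Dct, Pmel, Mlana, Gpr143, Oca2, Slc45a2, Slc24a5 and Trpm1. They were chosen by name, as 10 of 21938 protein-coding genes, and the H3K27ac peaks assigned to each were those that overlapped its body, the 30 kb upstream of it or the 5 kb downstream of it. Acetylation of histone H3 at lysine 27 (H3K27ac) is a mark of active promoters and enhancers, and a peak is a stretch of the genome called enriched for it by chromatin immunoprecipitation and sequencing. In all, 376 of 256200 listed peaks, from 9 lists, lay in the 10 windows and merged into 78 of 59668 regions.

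The lists came from 9 mouse melanoma cell lines, 1 list per line, established from melanomas of transgenic mice that all carried the oncogene NRAS with the Q61K change under control of the Tyr promoter (Tyr::NRAS), 1 deleted copy of the tumour suppressor Cdkn2a (Cdkn2a+/-) and floxed alleles of the E-cadherin gene (Cdh1 F/F). Ecad lines had no Cre, whereas ΔEcad lines also carried Tyr::CreA, a Cre recombinase driven in the melanocyte lineage by the Tyr promoter, which deletes Cdh1. The Ecad lines were Ma_1007 and Ma_1181 (male) and Ma_1014 and Ma_1039 (female), and the ΔEcad lines were Ma_1062 and Ma_1456 (male) and Ma_1057, Ma_1064 and Ma_1069 (female). No treatment, time or age was given for them. Each line is the descendant of cells from a tumour, so the p values below measure the spread between lines. Because both transgenes are driven by Tyr sequence, reads from transgene copies and from the gene's own upstream sequence cannot be told apart in the peaks of Tyr.

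Melanin is made from tyrosine inside melanosomes. Tyrosinase (Tyr) catalyses the rate-limiting first steps, Dct and Tyrp1 act on later intermediates, Pmel forms the fibrils on which the pigment is laid down, and Oca2, Slc45a2 and Slc24a5 move ions or sugars across organelle membranes and so set the conditions in which the enzymes work. The transcription factor MITF, with SOX10 and PAX3, drives these genes in melanocytes, and MITF binds E-box sequences such as TCATGTG and TCACGTG.

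The lists held 20741 to 41663 peaks covering 29.5 to 67.2 Mb, with a mean of 34.4 ± 5.03 Mb in the 3 female ΔEcad lines and 47.5 ± 10.5 Mb (SD) in the other 6. They contained no read counts, so the depth behind a peak is unknown and an uncalled region may hold signal below the calling threshold. Of 8 melanocyte markers, 7 or 8 had a promoter peak in every line. Among them, Mitf, Sox10 and Pax3, which are not members of the group described here, were called in all 9 lists. Of the markers of 4 other cell types, 0 of 5 immune and 0 of 4 endothelial genes were called in any list, and at most 1 of 5 keratinocyte genes (Krt10) and 1 of 5 fibroblast genes (Pdgfra) were called in a line. All 4 Y-linked genes examined were called in the 4 male lines and 0 in the 5 female lines. Cdh1 had no promoter peak in any list, so its promoter calls did not check the genotype labels, and peaks over its body covered 1.66 to 3.16 kb in the female ΔEcad lines and 4.45 to 8.79 kb in the other 6.

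Sequences are shown for the promoters at which the calls were strongest (Tyr and Dct). Others are of promoters that differed between lines in being called (Tyrp1 and Oca2) or in width (Slc24a5). The last are of the Trpm1 entry at internal starts 31.7 kb into the gene, which had a peak in 8 lists, and of the strongest distal peak (Tyr). All but the distal sequence are from the RefSeq promoter table of build GRCm38.p6. It held 7 entries for 6 of the 10 genes (Tyr, Tyrp1, Dct, Oca2, Slc24a5 and Trpm1, not Pmel, Mlana, Gpr143 or Slc45a2). The distal sequence is from the genome of the same build. Each reads 5′ to 3′ on the strand of its gene. The promoters stop before the first annotated transcription start there, and the short Tyrp1 stretch lies between the first GENCODE start of the gene and its RefSeq start, with the E-box inside it. Capitals mark TCATGTG or TCACGTG on either strand. The promoter of Tyr is chr7:87493513-87493762 (minus strand), that of Dct chr14:118052247-118052496 (minus), the stretch at Tyrp1 chr4:80834155-80834184 (plus), and the promoters of Slc24a5, Oca2 and internal Trpm1 are chr2:125067877-125068123, chr7:56239509-56239758 and chr7:64185209-64185380 (plus). The distal sequence, chr7:87508759-87508958, is centred on the median summit of the upstream Tyr peak.
Tyr promoter: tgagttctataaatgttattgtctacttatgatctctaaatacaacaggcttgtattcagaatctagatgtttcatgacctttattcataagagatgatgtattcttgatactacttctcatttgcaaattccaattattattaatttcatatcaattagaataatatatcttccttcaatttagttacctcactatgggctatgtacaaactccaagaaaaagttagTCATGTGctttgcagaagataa
Dct promoter: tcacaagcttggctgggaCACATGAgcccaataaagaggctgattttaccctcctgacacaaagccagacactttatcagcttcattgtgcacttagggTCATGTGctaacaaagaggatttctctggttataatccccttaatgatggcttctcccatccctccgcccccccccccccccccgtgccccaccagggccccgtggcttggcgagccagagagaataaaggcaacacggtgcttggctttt
Tyrp1 E-box: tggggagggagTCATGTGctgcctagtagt
Slc24a5 promoter: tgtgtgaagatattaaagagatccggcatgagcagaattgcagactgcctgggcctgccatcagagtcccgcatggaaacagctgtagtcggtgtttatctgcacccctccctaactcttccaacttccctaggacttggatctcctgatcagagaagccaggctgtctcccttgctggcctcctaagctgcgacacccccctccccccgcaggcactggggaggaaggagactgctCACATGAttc
Oca2 promoter: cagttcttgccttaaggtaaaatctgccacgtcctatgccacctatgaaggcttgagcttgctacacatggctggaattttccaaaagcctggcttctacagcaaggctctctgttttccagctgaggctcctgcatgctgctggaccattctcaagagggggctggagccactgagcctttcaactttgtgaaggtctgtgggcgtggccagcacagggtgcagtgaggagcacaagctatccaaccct
Trpm1 internal promoter: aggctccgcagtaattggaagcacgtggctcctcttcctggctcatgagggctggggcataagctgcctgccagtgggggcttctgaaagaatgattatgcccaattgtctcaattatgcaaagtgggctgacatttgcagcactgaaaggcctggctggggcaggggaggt
Tyr distal summit: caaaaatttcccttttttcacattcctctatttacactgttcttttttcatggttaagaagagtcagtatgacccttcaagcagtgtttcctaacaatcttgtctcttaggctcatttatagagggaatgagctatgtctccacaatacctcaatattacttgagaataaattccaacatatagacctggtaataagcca

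An MITF E-box of either form stood in the 250 bases before the start of 5 of the 6 genes with an entry. Counted by entry it was 5 of 7, against 6.19% of 20150 entries for protein-coding genes. In each case the form was TCATGTG, which 2.55% of those entries held. Counted from the RefSeq start, it lay at bases -22 to -16 for Tyr, at -47 to -41 for Tyrp1, at -13 to -7 on the opposite strand for Slc24a5, and at both -151 to -145 and, on the opposite strand, -232 to -226 for Dct. Trpm1 held it only before its first start, which, as described below, had no peak in any list, and Oca2 held neither form. Both forms begin with T. The core CACGTG in the internal Trpm1 sequence and CATGTG on the opposite strand of the Oca2 promoter lack that T and were not counted. The SOX letters ACAAAG or ACAATG stood in the promoters of Dct, Tyrp1 and Oca2, against 22.2% of all entries, the TCF/LEF letters CTTTGA in both entries of Trpm1, against 12.6%, and the AP-1 letters TGANTCA, sharing 3 bases with the E-box, in that of Slc24a5, against 6.13%. Around the summits of the 3 distal regions called in all 9 lists (200 bases each), 0 held an MITF E-box, against 4.57% of 3785 such regions in the series, and that of Slc45a2 held ACAATG, against 26.8% for either SOX form. These matches are letters in a window, not sites shown to be bound.

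Promoter peaks, defined as peaks within 1 kb of an annotated transcription start, were called for 7 of the 10 genes in all 9 lists, against 21.1% of 21938 protein-coding genes. The exceptions were Gpr143 with 8 lists, Tyrp1 with 6 and Oca2 with 3. The strength of a promoter peak was expressed as its percentile, the share of the line's peaks with a q value no stronger than its own. The median percentile over the called genes of the group was 90.5 to 97.5 in a line, against 58.4 to 74.7 over all called genes of the same line.

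**Figure D1:**
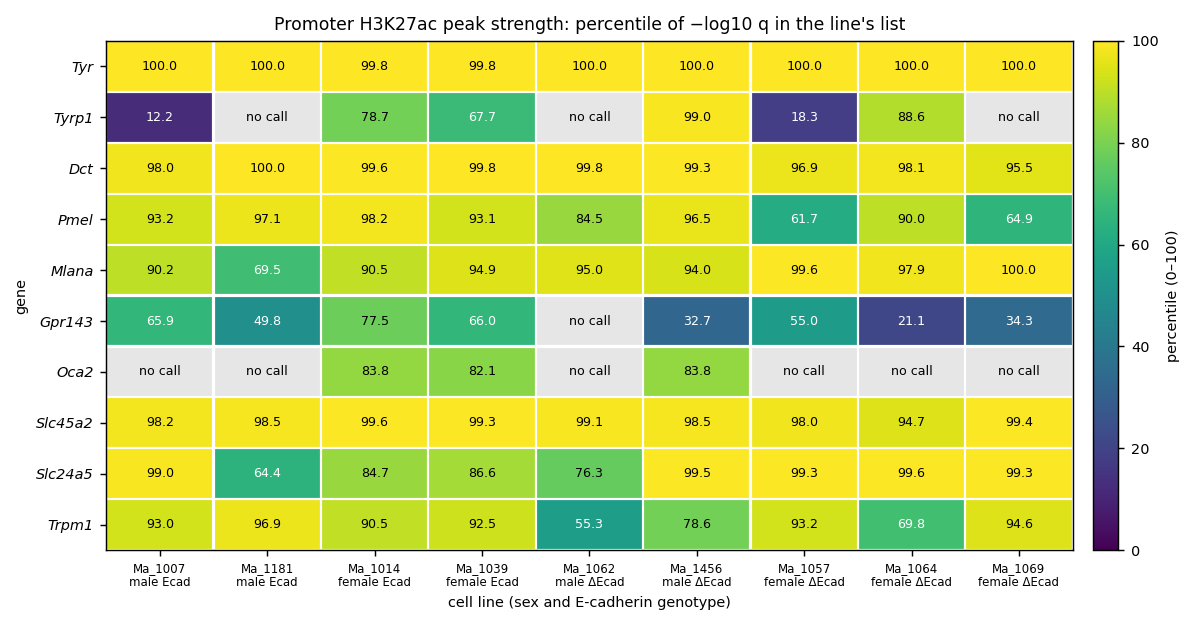
Percentile of the strongest promoter H3K27ac peak of each gene (rows) in each line (columns), where 100 is the strongest peak of the line's list by −log10 q and grey marks a gene with no peak within 1 kb of a start. Tyr, Dct and Slc45a2 stayed at 94.7 or above in all 9 lines, while Tyrp1 ran from no call to 99.0.

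The promoter peaks were also broad. The widest promoter peak of Tyr had a median width of 22.2 kb over the 9 lists, those of Dct, Tyrp1 and Pmel had medians of 11.4, 11.3 (6 lists) and 11.2 kb, and those of Slc24a5, Mlana and Slc45a2 had medians of 9.38, 8.35 and 7.76 kb. Oca2 (3.66 kb, 3 lists), Trpm1 (2.71 kb) and Gpr143 (1.84 kb) had narrower ones. All 10 lay above the median of 1.07 kb over the 11607 genes called in at least 1 list, and 4 of 10 reached 10 kb, a width chosen after the values were seen, against 0.551% of those genes. The 4 include Pmel, whose promoter region also spans starts of Rab5b and Cdk2, so that width cannot be assigned to Pmel alone. The Pmel promoter peak was 11.2 to 15.6 kb wide in the Ecad lines and 13.8 kb in Ma_1456. It was at most 3.31 kb wide in Ma_1062 and the 3 female ΔEcad lines. Per length, peaks covered a median of 27.9% of the window of Tyr, 26.0% of that of Dct and 1.60% of that of Oca2, whose body of 297 kb is the longest of the group.

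Tyr, the rate-limiting enzyme, lies at chr7:87424771-87493512 on the minus strand (GRCm38). A single peak of 20.7 to 27.3 kb lay over its promoter in every list. By rank within the list, where 1 is the strongest peak, the promoter peak stood at 14 and 6 in the male Ecad lines Ma_1007 and Ma_1181, at 67 and 55 in the female Ecad lines Ma_1014 and Ma_1039, at 9 and 7 in the male ΔEcad lines Ma_1062 and Ma_1456, and at 3, 6 and 2 in their female counterparts Ma_1057, Ma_1064 and Ma_1069. It was thus among the 67 strongest peaks of every line, and lowest in rank in both female Ecad lines. A second, distal peak (chr7:87504468-87511545 over all lists) had its median summit at -15.3 kb from the start, and its summits in the 9 lists lay within 38 bases of each other. This distal peak was the strongest of the whole list in all 3 female ΔEcad lines and ranked 4, 4, 25, 14, 4 and 6 in Ma_1007, Ma_1181, Ma_1014, Ma_1039, Ma_1062 and Ma_1456. It outranked the promoter peak in every line.

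Peaks covered 33.9 and 39.7 kb of the Tyr window in Ma_1007 and Ma_1181, 26.5 and 29.0 kb in Ma_1014 and Ma_1039, 27.5 and 34.8 kb in Ma_1062 and Ma_1456 and 27.6, 27.2 and 34.4 kb in Ma_1057, Ma_1064 and Ma_1069. Both male Ecad lines lay above both female Ecad lines, but the groups overlapped between all ΔEcad and Ecad lines, between the sexes, and between female ΔEcad and the other lines. The coefficient of variation over the 9 lines was 14.8%, against a median of 39.0% for genes with a promoter peak in all 9 lists. Of 16 distal regions at Tyr, 15 lay within the gene, and only 1 to 5 distal regions were called in any line other than the male Ecad lines, which had 10 and 12. Those intragenic regions were weak. The 3 called in both male Ecad lines and nowhere else were intronic, with percentiles of 2.04 to 25.1. The list of Ma_1007 was the longest of the 9, at 41663 peaks, whereas that of Ma_1181, the line with 12 distal regions, held 25757.

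Tyrp1 (chr4:80834123-80851719), which stabilises tyrosinase and acts late in the synthesis of eumelanin, varied most. Peaks covered 4.05 and 0 kb of its window in the male Ecad lines Ma_1007 and Ma_1181, 20.1 and 18.2 kb in the female Ecad lines, 0.293 and 31.1 kb in the male ΔEcad lines Ma_1062 and Ma_1456, and 3.56, 13.8 and 0 kb in Ma_1057, Ma_1064 and Ma_1069. High lines (Ma_1014, Ma_1039, Ma_1456 and Ma_1064) and nearly bare lines (Ma_1181, Ma_1062 and Ma_1069) occurred within the same group, except that both female Ecad lines were high and both male Ecad lines low. The promoter percentile was 12.2 in Ma_1007, 78.7 in Ma_1014, 67.7 in Ma_1039, 99.0 in Ma_1456, 18.3 in Ma_1057 and 88.6 in Ma_1064, with no call in the other 3. A distal region with its summit at -13.9 kb (chr4:80819207-80822781) was called in the same 6 lines, at percentiles of 23.7 to 94.9. None of the 3 comparisons of Tyrp1 reached an unadjusted p of 0.05.

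Dct (chr14:118012790-118052244, minus strand), the dopachrome tautomerase, was strong in every line. Its promoter percentile was 98.0 and 99.97 in the male Ecad lines, 99.6 and 99.8 in the female Ecad lines, 99.8 and 99.3 in the male ΔEcad lines and 96.9, 98.1 and 95.5 in the female ΔEcad lines. The peaks covered 17.2 and 26.5 kb of the window in the male Ecad lines, 36.1 and 33.9 kb in the female Ecad lines, 19.3 and 22.8 kb in Ma_1062 and Ma_1456, and only 10.1, 9.73 and 9.35 kb in female ΔEcad lines. All 3 female ΔEcad lines lay below the other 6. Part of that length was in the body of the gene, where regions from 16.4 kb onward were called in up to 4 of the other 6 lines and in 0 female ΔEcad lines. One distal region, at -18.5 kb (chr14:118069714-118071373), was called in all 9 lists at percentiles of 33.9 to 76.9, and a region at an internal start (chr14:118025121-118026908) was called in both female Ecad lines and no other.

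**Figure D2:**
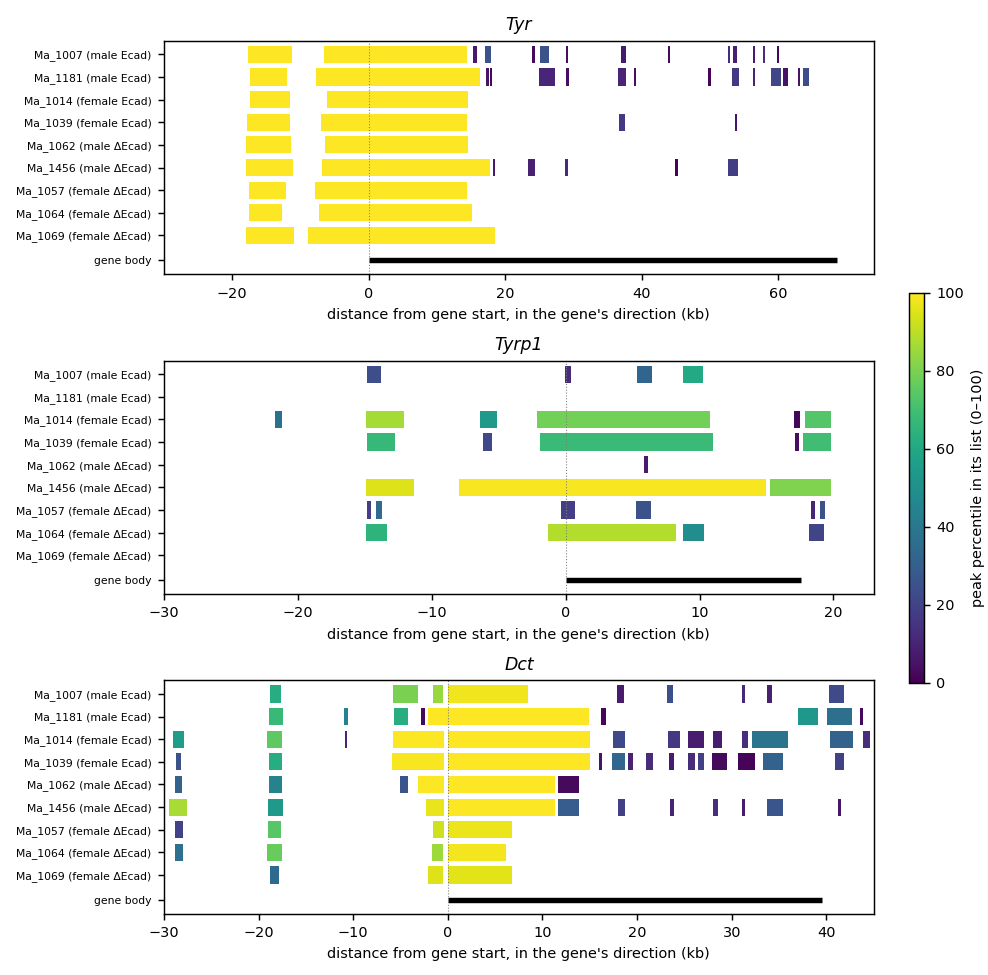
Peaks of each line over the windows of the 3 melanin enzymes, drawn to scale by distance in kb from the gene start in the direction of transcription and coloured by the percentile of the peak in its list (0 to 100). The block over the Tyr promoter and the distal Tyr peak were present in all 9 lines, Tyrp1 was bare in Ma_1181 and Ma_1069, and the Dct peaks were shortest in the 3 female ΔEcad lines.

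Among the structural proteins, Pmel (chr10:128704195-128720238), the fibril protein, had a promoter percentile of 93.2 and 97.1 in the male Ecad lines, 98.2 and 93.1 in the female Ecad lines, 84.5 and 96.5 in the male ΔEcad lines and 61.7, 90.0 and 64.9 in the female ΔEcad lines. Its peaks covered 12.5, 14.4, 15.9 and 13.6 kb in the 4 Ecad lines in that order, 4.84 and 14.6 kb in Ma_1062 and Ma_1456, and 2.42, 4.30 and 3.60 kb in Ma_1057, Ma_1064 and Ma_1069. The female ΔEcad lines were the lowest 3 by length, with Ma_1062 just above them. The region (chr10:128695290-128711109) also spans starts of Rab5b, upstream, and of the cell-cycle kinase gene Cdk2, which begins on the opposite strand within 1 kb of the Pmel start. The promoter peak is thus shared with Cdk2 and cannot be assigned to Pmel alone.

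Mlana (chr19:29697824-29708634), a melanosome protein that takes part in the processing of Pmel and is known as a melanoma antigen, had peaks over 8.25 and 4.78 kb in the male Ecad lines, 8.80 and 8.61 kb in the female Ecad lines, 7.83 and 7.46 kb in Ma_1062 and Ma_1456 and 14.9, 8.49 and 16.5 kb in Ma_1057, Ma_1064 and Ma_1069. All of them fell in 1 region over the gene (chr19:29695695-29712385) with no distal region. The promoter percentile was 90.2, 69.5, 90.5 and 94.9 in the Ecad lines, 95.0 and 94.0 in the male ΔEcad lines and 99.6, 97.9 and 99.98 in the female ΔEcad lines. The female ΔEcad lines were the highest 3, and in Ma_1069 the peak ranked 6 of 20741.

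Gpr143 (chrX:152781921-152808646), a melanosomal G-protein-coupled receptor altered in ocular albinism, had the lowest median percentile over called lists of the 10 genes, 52.4. Its promoter percentile was 65.9, 49.8, 77.5 and 66.0 in the Ecad lines, 32.7 in Ma_1456, and 55.0, 21.1 and 34.3 in the female ΔEcad lines, with no peak in the window of Ma_1062. Only Ma_1057 among the ΔEcad lines exceeded any Ecad line. Peaks covered at most 4.51 kb, in Ma_1007.

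Among the transporters, Slc45a2 (chr15:11000721-11029233), which raises melanosomal pH, had the smallest coefficient of variation of covered length of the 10 genes. Its promoter percentile was 94.7 to 99.6 and its covered length 9.44 to 14.2 kb over the 9 lines, with a coefficient of variation of 12.7%. That length includes a peak at the start of the neighbouring gene Amacr, which was called in all 9 lists. The groups overlapped in each comparison. A distal region at -3.49 kb (chr15:10995985-10999317) was called in all 9 lists at percentiles from 24.5 in Ma_1181 to 90.6 in Ma_1456.

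Slc24a5 (chr2:125068124-125088677), a potassium-dependent sodium/calcium exchanger, differed between lines in the width of its promoter peak. Its promoter peak was 12.4 kb wide in Ma_1007, 10.4 kb in Ma_1456 and 9.38, 9.69 and 10.4 kb in Ma_1057, Ma_1064 and Ma_1069, where its percentile was 99.0 or above. It was 1.03 kb wide in Ma_1181, 2.42 and 6.95 kb in the female Ecad lines and 1.56 kb in Ma_1062, with percentiles of 64.4, 84.7, 86.6 and 76.3. The window was covered over 20.1, 1.41, 2.74 and 7.77 kb in the Ecad lines, 1.56 and 14.8 kb in Ma_1062 and Ma_1456 and 12.1, 20.4 and 16.2 kb in Ma_1057, Ma_1064 and Ma_1069, so that each male group held a high and a low line.

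**Figure D3:**
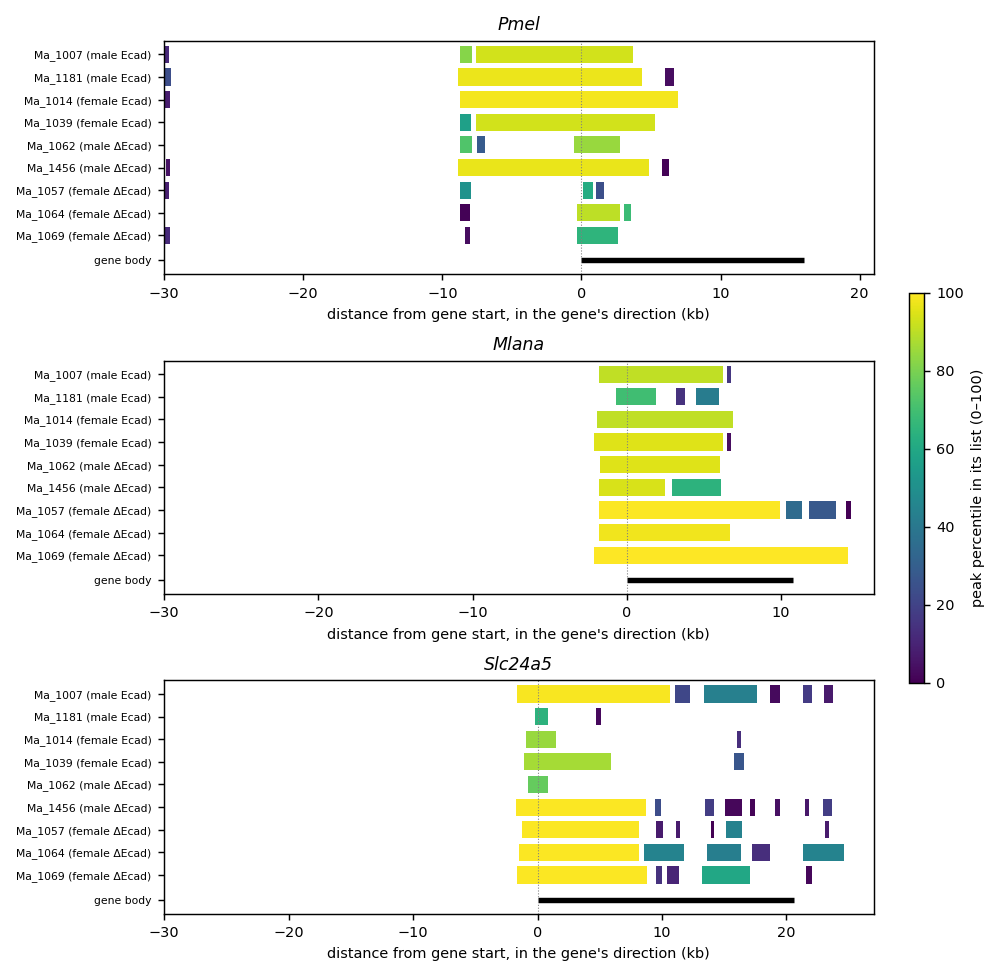
Peaks of each line over Pmel, Mlana and Slc24a5, by distance in kb from the gene start and coloured by percentile in the list (0 to 100). The Pmel block was broken up in Ma_1062 and the 3 female ΔEcad lines, the Mlana block was longest in Ma_1057 and Ma_1069, and the Slc24a5 block was wide in Ma_1007, Ma_1456 and the 3 female ΔEcad lines.

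Oca2 (chr7:56239760-56536518), a chloride channel of the melanosome membrane, had a promoter call in Ma_1014 (percentile 83.8), Ma_1039 (82.1) and Ma_1456 (83.8) and in no other line. The difference between a call and none was small in distance, because every list had an intronic peak close by. The edge of the nearest peak lay 1.99, 1.97, 1.97, 1.19, 1.69 and 1.88 kb from the start in the uncalled lines Ma_1007, Ma_1181, Ma_1062, Ma_1057, Ma_1064 and Ma_1069. The percentile of that peak was 31.7, 24.1, 36.4, 86.1, 56.3 and 3.22 in the same lines, so in Ma_1057 it was as strong as in the called lines. Peaks covered 2.54 and 2.90 kb in the male Ecad lines, 10.9 and 9.58 kb in the female Ecad lines, 1.72 and 20.7 kb in Ma_1062 and Ma_1456 and 6.21, 5.29 and 0.827 kb in Ma_1057, Ma_1064 and Ma_1069. The lines Ma_1014, Ma_1039 and Ma_1456, with the longest coverage here, were also the 3 with the longest at Tyrp1. A distal region at -3.17 kb (chr7:56235200-56237449) was called in 7 lists, all but Ma_1062 and Ma_1069, at percentiles of 37.4 to 85.6, and an intronic region 165 kb into the gene (chr7:56402814-56405196) was called only in both male ΔEcad lines, at 10.1 and 36.7.

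Trpm1 (chr7:64153835-64269775), a cation channel gene, had no peak within 1 kb of its first annotated start in any list. Its promoter calls came from internal starts. A cluster of 8 starts 31.7 kb into the gene carried a peak in 8 lists, all but Ma_1062, at percentiles of 86.1, 96.9, 69.9 and 81.6 in the Ecad lines, 78.6 in Ma_1456 and 93.2, 69.8 and 94.6 in the female ΔEcad lines. Starts 72.9 kb into the gene carried one in all 9 lists, at 93.0, 92.3, 90.5 and 92.5 in the Ecad lines, 55.3 and 46.5 in the male ΔEcad lines and 67.6, 40.6 and 89.0 in the female ΔEcad lines. At these later starts the 4 Ecad lines lay above all 5 ΔEcad lines, and an intronic region 5.72 kb into the gene (chr7:64158421-64160973) was called in all 4 Ecad lines, at percentiles of 12.9 to 85.2, and in 0 of 5 ΔEcad lines. Both observations were made after the values were seen and were not tested. The shares of all start clusters and of all distal regions that separate the genotypes in this way were not computed. Neither observation can therefore be called particular to Trpm1. Peaks covered 12.5, 21.5, 5.83 and 9.41 kb of the window in the Ecad lines, 1.14 and 5.38 kb in Ma_1062 and Ma_1456 and 8.43, 4.39 and 17.7 kb in Ma_1057, Ma_1064 and Ma_1069. These lengths overlapped between the genotypes.

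Trpm1 is the host gene of miR-211, a miRNA of the melanocyte lineage, whose hairpin lies at chr7:64205806-64205911 on the plus strand. Its mature 5p strand is shown with the seed, bases 2 to 8, in capitals, because the hairpin fell in an intronic region of peaks (chr7:64204866-64207905). This region was singled out after its values were seen.
miR-211-5p: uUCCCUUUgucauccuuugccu
The region was called in 5 lists, at percentiles of 22.3 in Ma_1007, 46.7 in Ma_1181, 9.69 in Ma_1039, 31.4 in Ma_1057 and 50.6 in Ma_1069. A peak lay over the hairpin itself in Ma_1181 alone, and the nearest peak in the other 4 was 0.392 to 0.664 kb away.

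**Figure D4:**
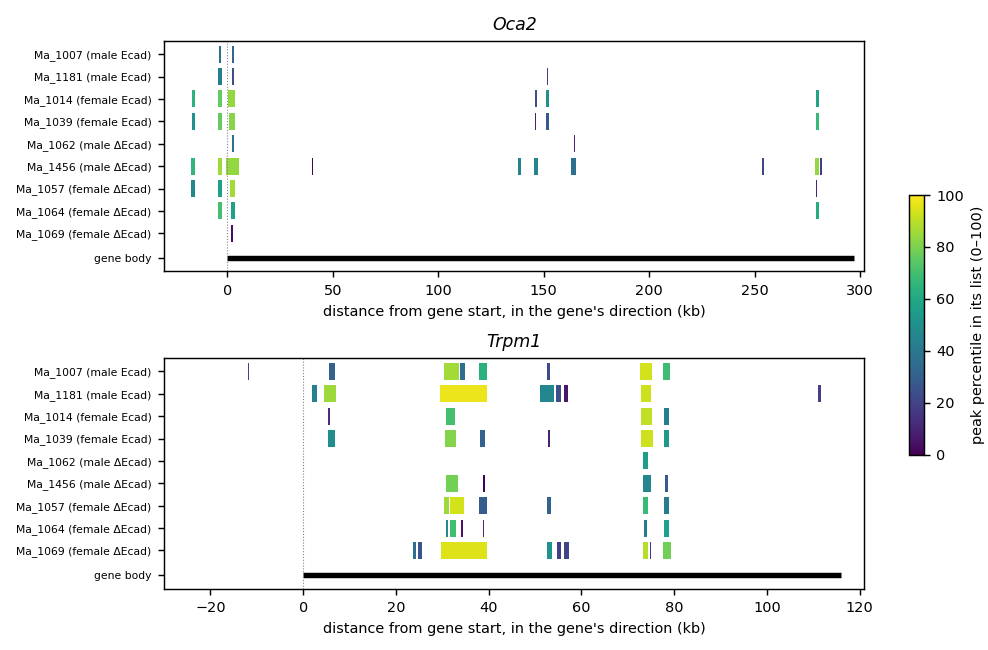
Peaks of each line over Oca2 and Trpm1, by distance in kb from the gene start and coloured by percentile in the list (0 to 100). Near the Oca2 start all 9 lines had a peak, but only Ma_1014, Ma_1039 and Ma_1456 had one within 1 kb of it, and no line had a peak at the first start of Trpm1.

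In all, 59 of the 78 regions were distal, more than 1 kb from every protein-coding start. Of these, 38 were intronic, 15 upstream, 4 downstream and 2 exonic. Only 3 (5.08%) were called in all 9 lists, against 8.26% of 45889 distal regions in the series, and 24 (40.7%) in a single list, against 39.6%. A line had between 5 (Ma_1062) and 28 (Ma_1456) of them, with 24 or 25 in each Ecad line and 13, 12 and 10 in Ma_1057, Ma_1064 and Ma_1069. As a share of the 59 this was 40.7% to 42.4% in the Ecad lines, 8.47% in Ma_1062, 47.5% in Ma_1456 and 16.9% to 22.0% in female ΔEcad lines. Of all 45889 distal regions the same lists called 30.2% to 59.4%, 28.2%, 40.4% and 26.4% to 38.5%, and whether the pigment loci differ from the rest was not tested.

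The first comparison asked whether loss of E-cadherin went with a difference at these genes. The 3 comparisons share lines, so their results are not independent of each other, and in bulk chromatin fewer acetylated cells and less acetylation per cell cannot be told apart. By covered length, 2 of 10 genes, Dct and Pmel, passed an unadjusted exact permutation p of 0.05 between the 5 ΔEcad and 4 Ecad lines, against a background of 17.6% of 16270 genes. Dct was covered over 14.3 ± 6.33 kb in ΔEcad and 28.4 ± 8.54 kb (SD) in Ecad lines, a difference of -14.2 kb (exact permutation p = 0.0397, adjusted over all genes p = 0.270). Within the sexes the difference was -25.3 kb in females (3 against 2 lines) and -0.811 kb in males (2 against 2), and whether these differ was not tested. The Dct call held without Ma_1007 (exact permutation p = 0.0357) and was lost without any 1 of the other 8 lines (exact permutation p of 0.0571 to 0.0857) and as a share of each list's covered length (-239 bases per Mb, exact permutation p = 0.103). Pmel was covered over 5.95 ± 4.92 kb in ΔEcad and 14.1 ± 1.46 kb in Ecad lines, a difference of -8.16 kb (exact permutation p = 0.0397, adjusted p = 0.270), and without peaks within 1 kb of the start of another gene, a setting that also removes the promoter peak shared with Cdk2, the difference was 0.0260 kb (exact permutation p = 1.00). The Pmel call held without Ma_1456 (exact permutation p = 0.0286) and was lost without any 1 of the other 8 lines (exact permutation p of 0.0893 to 0.125). The other 8 genes did not pass, and over the 10 genes the median difference was -0.898 kb, against -0.568 kb over all genes tested.

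By promoter percentile, 3 of 10 genes passed the same threshold between genotypes, against a background of 19.7% of 11607 genes. Mlana stood at 97.3 ± 2.70 in ΔEcad and 86.3 ± 11.4 in Ecad lines, a difference of 11.0 (exact permutation p = 0.0159, adjusted p = 0.211). The difference was 5.37 without Ma_1181 (exact permutation p = 0.0536), and the call was also lost without Ma_1062, Ma_1057, Ma_1064 or Ma_1069 (10.3 to 11.5, exact permutation p = 0.0571). Gpr143 stood at 28.6 ± 20.1 and 64.8 ± 11.4, a difference of -36.2 (exact permutation p = 0.0238, adjusted p = 0.225), and in both sexes the mean was lower in ΔEcad lines, with differences of -35.0 in females and -41.5 in males. The Gpr143 call held without Ma_1181 or Ma_1057 (exact permutation p of 0.0357 and 0.0286) and was lost without any 1 of the other 7 lines (-37.6 to -29.0, exact permutation p of 0.0571 to 0.0714) and with equal numbers of peaks per list (-31.5, exact permutation p = 0.0714). Tyr also passed, with a difference of 0.100 on a scale of 100 (exact permutation p = 0.0397, adjusted p = 0.242), but its percentiles were 99.8 or above in all 9 lines, the means of both sexes differed by 0.198 (females) and -0.000638 (males), and the ΔEcad lines carry an additional Tyr transgene. The Tyr call held without Ma_1181 alone (exact permutation p = 0.0357, against 0.0536 to 0.143 without another line), and the difference was 0.0622 without Ma_1014 and 0.0170 with percentiles by fold enrichment. The median difference was -1.18 over the 10 genes and -13.5 over all genes tested. These medians are not like for like, because an uncalled promoter counts as 0. Of the 11607 genes, 6985 were called in some but not all lists, whereas 7 of the 10 genes were called in all 9. The same holds for the percentile medians of the other comparisons.

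The second comparison set 5 female against 4 male lines. By either measure, 0 of 10 genes reached an unadjusted exact permutation p of 0.05, against backgrounds of 11.3% by covered length and 12.6% by percentile. The smallest p was that of Mlana by both measures. Its covered length was 11.5 ± 3.91 kb in female and 7.08 ± 1.57 kb in male lines (exact permutation p = 0.0714, adjusted p = 0.476), although all 5 female lines lay above all 4 male lines. Without any 1 female line it passed (3.12 to 5.12 kb, exact permutation p = 0.0286), and without a male line it did not (exact permutation p of 0.107 to 0.125). Its percentile was 96.6 ± 3.92 and 87.2 ± 12.0 (exact permutation p = 0.0714, adjusted p = 0.426), with a difference of 9.41 that was 3.52 without Ma_1181 and passed without Ma_1062 alone (exact permutation p = 0.0357). The median difference over the 10 genes was -0.367 kb and 8.15 in percentile, against -0.530 kb and -12.6 over all genes.

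The third comparison asked whether the 3 female ΔEcad lines stood apart from the other 6. By covered length 3 of 10 genes passed, against a background of 27.4%. Dct was covered over 9.73 ± 0.388 kb in female ΔEcad and 26.0 ± 7.71 kb in the other lines, a difference of -16.3 kb (exact permutation p = 0.0238, adjusted p = 0.124). The Dct call was lost without any 1 of the female ΔEcad lines (exact permutation p = 0.0714) and as a share of each list's covered length (-286 bases per Mb, exact permutation p = 0.0714). Pmel was covered over 3.44 ± 0.954 and 12.6 ± 3.99 kb, a difference of -9.20 kb at the smallest p these 84 choices of lines allow (exact permutation p = 0.0119, adjusted p = 0.0906). The Pmel call held without each of the 9 lines in turn (exact permutation p of 0.0179 to 0.0357), but without peaks at the starts of other genes, the shared promoter peak included, the difference was -0.0253 kb (exact permutation p = 1.00). Mlana went the other way, at 13.3 ± 4.24 and 7.62 ± 1.48 kb, a difference of 5.67 kb (exact permutation p = 0.0357, adjusted p = 0.150). Its groups overlapped, because Ma_1064 (8.49 kb) lay below Ma_1014 and Ma_1039. The Mlana call held without Ma_1014, Ma_1039 or Ma_1064 and was lost without any 1 of the other 6 lines (exact permutation p of 0.0536 to 0.107). Slc24a5, which did not pass as listed (8.17 kb higher, exact permutation p = 0.131), passed with equal numbers of peaks per list (9.49 kb, exact permutation p = 0.0357) and as a share of each list's covered length (321 bases per Mb, exact permutation p = 0.0119). The share of all genes that passed under these settings was not computed.

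By promoter percentile, 2 of 10 genes passed in that contrast, against a background of 26.0%. Dct stood at 96.8 ± 1.30 in female ΔEcad and 99.4 ± 0.747 in the other lines, a difference of -2.58 (exact permutation p = 0.0238, adjusted p = 0.121), which lost its call with percentiles by fold enrichment (-2.47, exact permutation p = 0.500). Pmel, at the promoter shared with Cdk2, stood at 72.2 ± 15.5 and 93.8 ± 5.01, a difference of -21.6 (exact permutation p = 0.0238, adjusted p = 0.121). Both calls were lost without Ma_1057 or Ma_1069 (exact permutation p = 0.0714). The median difference over the 10 genes was -2.04 in percentile and -1.27 kb in length, against -14.7 and -0.783 kb over all genes. In none of the 6 tests did any gene of the genome pass 0.05 after adjustment, the smallest adjusted p over all genes being 0.0822 to 0.353. The smallest exact permutation p that 9 lines allow is 0.00794 or 0.0119, which leaves little room to pass after adjustment over 11607 or 16270 genes. Even the 4 Y-linked genes, called in every male and in no female line, did not pass between the sexes. The lack of adjusted calls is therefore no evidence that the groups are alike.

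**Figure D5:**
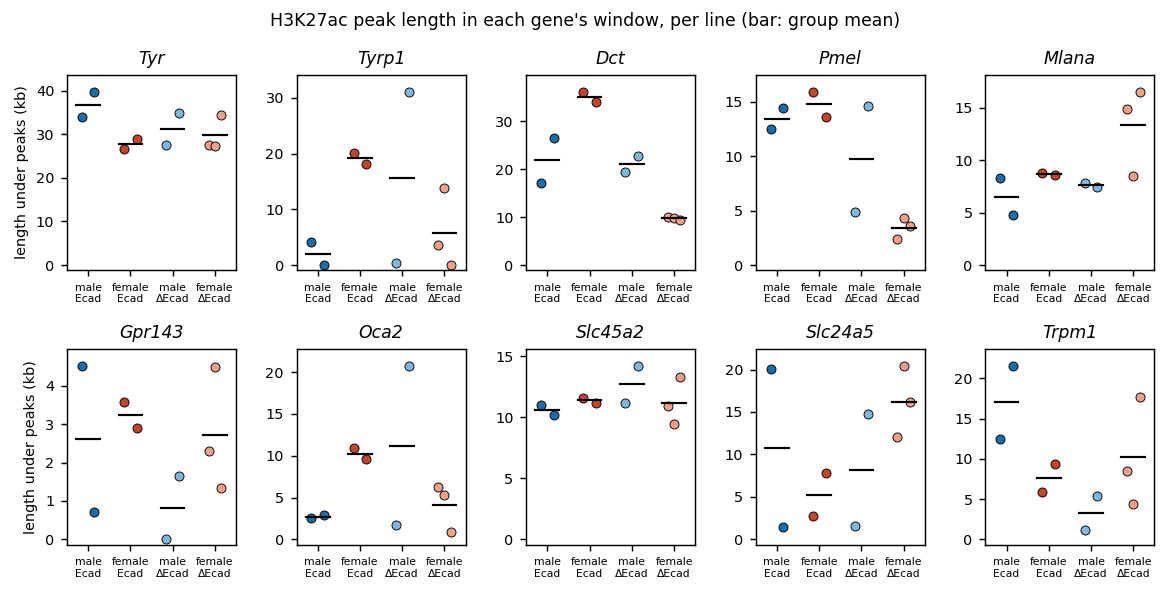
Length under H3K27ac peaks in the window of each gene (kb), 1 point per line and a bar at the mean of each group of 2 or 3 lines. The 3 female ΔEcad lines were the lowest at Dct and Pmel and had the highest mean at Mlana, while Tyrp1, Oca2 and Slc24a5 each had a high and a low line among the male ΔEcad lines.

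Of 34 further genes of the pathway, 19 had a promoter peak in all 9 lists, 14 in some and 1, Slc24a4, in 0. Of 8 regulators, 5 (among them Mitf, Sox10 and Pax3) were called throughout, while the endothelin receptor Ednrb was called in 3 lists, the receptor tyrosine kinase Kit in 5 and the Wnt effector Lef1 in 6. Of 18 genes of melanosome biogenesis, 11 were called in all 9 lists. The 7 others were Hps1 (absent from the 3 female ΔEcad lists only), Hps6, Rab38, Rab32, Vps33a, Bloc1s5 and Bloc1s6, called in 4 to 8 lists. Of all protein-coding genes, 25.3% to 33.4% had a promoter peak in a female ΔEcad list and 38.4% to 48.6% in another list. The share of all genes absent from the female ΔEcad lists alone was not computed. Of 3 transport genes, Rab27a was called in 2 lists and Myo5a in 8, and among the 5 other pigment genes Mfsd12 was called in 6 and Tpcn2 in 5. By covered length, 5 of the 34 (14.7%) differed between genotypes at an unadjusted exact permutation p of 0.05, against 17.6% of all genes tested, 2 (5.88%) between the sexes, against 11.3%, and 7 (20.6%) between female ΔEcad lines and the others, against 27.4%. By promoter percentile, of the 33 with a call in any list, 2 (6.06%), 1 (3.03%) and 6 (18.2%) differed in the same comparisons, against 19.7%, 12.6% and 26.0%. All 6 shares lay below those of all genes.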

How the data were processed

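H3K27ac ChIP-seq peak lists of 9 mouse melanoma lines, 1 per line, were analysed as deposited. The submitters' processing notes name Bowtie2 2.4.5, MACS2 2.2.7.1 and deepTools 3.5.1.0.0, and the build is GRCm38 (mm10). The settings of the peak caller and the input used for each list are not given in the sources used here. The 4 input libraries were not analysed here. In each list the authors give a score, a fold enrichment (a linear ratio over background), a −log10 p, a −log10 q and the offset of the summit from the peak start. The lowest deposited −log10 q was 5.00 to 5.04. No file holds read counts, so depth is unknown and no counting interval is given, and list length can move with depth and with the precipitation.

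Peaks were assigned to protein-coding genes of GENCODE M21 within the gene body plus 30 kb upstream and 5 kb downstream. A promoter call was a peak within 1 kb of an annotated start. Its strength was the percentile of its −log10 q within the list, with 0 where there was no call. Peaks that overlapped or touched across lists were merged into regions. A region further than 1 kb from every protein-coding start was distal. Sex and genotype labels gave the groups. The labels do not say whether lines came from separate animals. Each gene was tested by an exact two-sided permutation of lines over the difference of group means, with Benjamini-Hochberg adjustment over all genes that had a peak in the window (covered length) or a promoter call (percentile) in at least 1 list. The self-made code was tested on simulated data. Python 3.11.15, numpy 2.4.6, pandas 2.3.3, scipy 1.17.1 and matplotlib 3.10.9 were used.

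The 10 genes and the gene lists were chosen with earlier results of these data known. All 10 are described. Test values are given for those at an unadjusted p of 0.05 or below, or for the smallest p where there were none. Distal regions are named when called in all 9 lists, when among the 5 highest mean percentiles, or when called in every line of 1 group and no other line. Other pathway genes are named where their promoter call differed between lines, and names outside these rules are given as chosen after the values were seen. The alternatives tried were equal numbers of peaks per list, length per Mb covered, other windows and promoter distances, percentiles by fold enrichment, leaving out peaks at other promoters or genes without a call in some list, differences of mean ranks, and leaving out each line. A further marker list is not reported here.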

Additional observations from a re-analysis of the deposited data

Results flagged for a closer look

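Of 80 sets of 4 or 5 lines examined (each gene and measure within each genotype and each sex), 10 held a line far from the rest, and the sets overlap because each line is in a genotype and a sex. The cut-off flags about 1 in 20 sets by chance when values are normally distributed. Percentiles with no call set at 0 are not, and a line called alone in its set is always flagged, as in both Oca2 percentile sets. The 10 can therefore not be set against that rate. The male ΔEcad line Ma_1456 gave 7 of the 10. It was the highest male line at Tyrp1, with 31.1 kb covered against 0 to 4.05 kb and a promoter percentile of 99.0 against no call, no call and 12.2. At Oca2 it had 20.7 kb covered, against 1.72 to 2.90 kb in the other male lines and 0.827 to 6.21 kb in the other ΔEcad lines, and a promoter percentile of 83.8 where all other male and all other ΔEcad lines had no call. At Pmel it had 14.6 kb covered, against 2.42 to 4.84 kb in the other ΔEcad lines.

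The remaining 3 were in other lines. The male line Ma_1181 was the lowest Ecad line at Mlana, with 4.78 kb against 8.25 to 8.80 kb. The male line Ma_1062 was the lowest ΔEcad line at Slc24a5, with a promoter percentile of 76.3 against 99.3 to 99.6. The line Ma_1064 was the lowest female line at Trpm1, with a percentile of 69.8 against 90.5 to 94.6. No gene had genotype effects in opposite directions in every line of both sexes.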

How the results depend on the processing

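The counts of the 10 genes at an unadjusted exact permutation p of 0.05 were small and moved easily: of 87 recomputed counts, 54 were within 1.5 times the reported one and 33 were not. By covered length between genotypes (2 genes) the count was 1 per Mb covered (Slc45a2), 1 in the window of 100 kb upstream and 20 kb downstream (Dct), 1 without peaks at other promoters (Dct), 0 by mean ranks and 0 to 1 leaving out each line. Between the sexes (0 genes) it was 1 by mean ranks (Mlana) and 0 to 1 leaving out each line, and for female ΔEcad lines (3 genes) 1 to 3 leaving out each line, 4 with equal numbers of peaks (Slc24a5 added) and 3 per Mb covered (Slc24a5 in place of Dct). By promoter percentile it was 0 to 2 (genotype, 3 genes), 0 to 1 (sex, 0 genes) and 0 to 3 (female ΔEcad, 2 genes) leaving out each line, and in the last comparison 1 by fold enrichment (Pmel) and 4 by mean ranks (Tyr, Dct, Pmel and Mlana). The share of all genes that passed was not recomputed under these alternatives. The recomputed counts therefore have no background and cannot be read as particular to the pigment genes. Of 173 recomputed single-gene values, 105 kept direction and side of the threshold, 60 lost their call, 7 gained one and 1 reversed: Pmel between genotypes, 0.0260 kb without peaks at other promoters, an alternative that also removes the promoter peak Pmel shares with Cdk2. For the other changes the cause was not tested. Fewer lines allow only a larger smallest p, and whether this accounts for any lost call was not tested either. With equal numbers of peaks per list, 20741, the 59 distal regions became 31, since the weaker peaks of 8 lists are dropped. No paired analysis was possible because the labels give nothing that pairs lines across groups. Depth is unknown, so a missing call is not a missing mark.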

Other observations

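Of the 78 regions, 4 lay at promoters of neighbouring genes and are counted neither as distal regions nor as own promoters of the pigment genes. Their peaks are nevertheless part of the covered lengths and of the tests on them, as with 3.25 kb at Myef2 in the Slc24a5 window of Ma_1064. Only the setting without peaks at promoters of other genes leaves them out. The region at the start of Amacr, upstream of Slc45a2, was called in all 9 lists at percentiles of 65.0 to 82.5. Those at Suox (upstream of Pmel), Myef2 (downstream of Slc24a5) and Shroom2 (beside Gpr143) were called in 6, 5 and 3 lists.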
